A study of Saccharomyces cerevisiae with 14 samples.

Results

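The genes described here control Start, the point in late G1 at which a budding yeast cell commits to division. They were the 10 genes CLN1, CLN2, CLN3, SWI4, SWI6, MBP1, WHI5, SIC1, CLB5 and PCL1, chosen by name, out of 5449 measured genes of Saccharomyces cerevisiae. Each had 1 probe set that the platform annotation assigns to that gene alone, and none of these probe sets carried a suffix for probes shared with other genes. The strain was the wild type YSBN6, grown at 30 °C and pH 5 in batch fermentors, with glucose (20 g/L) and glutamine (1 g/L) as the carbon and nitrogen sources of a minimal medium. Rapamycin, which inhibits the kinase TOR complex 1, was pulsed to 400 µg/L during exponential growth. There were 3 experiments (BY005, BY006 and BY007), treated here as 3 fermentations, each sampled before the pulse (at -10 min, called steady state here) and 7 and 24 min after it. The labels do not say in words that they were separate cultures. The p-values rest on the spread between their arrays at these 3 times, which may not be that between independent cultures. Triplets of values below are in the order BY005, BY006, BY007. BY005 alone was also sampled at 3, 10, 14, 56 and 120 min, which gave 14 arrays in all.

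In G1 the cyclin Cln3 activates the kinase Cdc28, which phosphorylates the repressor Whi5. Whi5 then releases SBF, a complex of the DNA-binding protein Swi4 with Swi6, while the related complex MBF pairs Mbp1 with Swi6. SBF drives the late G1 cyclin genes CLN1, CLN2 and PCL1, and MBF drives genes of DNA replication and the S phase cyclin gene CLB5. Sic1 holds Clb5 with Cdc28 inactive until Cln1 and Cln2 with Cdc28 mark Sic1 for destruction by the ubiquitin ligase SCF. Rapamycin is known to arrest yeast in G1, and part of that control acts on the translation of Cln3 and the stability of Sic1, which arrays of mRNA do not read.

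All values below are log2 of the authors' RMA intensities, and all differences are log2 differences tested with limma over all 5449 genes. A gene counted as changed at a Benjamini-Hochberg adjusted p under 0.05, and errors after ± are standard errors of the fit unless named SD. The single arrays at 3, 10, 14, 56 and 120 min borrow their error from the 3 replicated times, and nothing repeats them. Each replicate array was also left out in turn, and "without BY006 at 7 min" below means without that 1 array. All comparisons against steady state share the same 3 steady-state arrays. No later array of a culture without rapamycin was analysed here, so the drug, the act of the pulse and the time in batch culture cannot be told apart. In bulk cultures, fewer cells in late G1 and less of an mRNA per cell cannot be told apart either. Replicate arrays were close: the SD of the median gene was 0.0672 before the pulse, 0.0904 at 7 min and 0.0821 at 24 min. The 3′ probe set of ACT1 read 0.59 to 0.83 above its 5′ probe set on all arrays. Differences are relative to each array's overall distribution, since RMA makes the distributions alike. Scaling to hybridisation control probe sets moved the median difference of all genes from 0.11 to 1.13 at 24 min and from 0.20 to -0.75 at 56 min. It turned the sign of 27 called differences of the genes named below, but the controls themselves spanned 2.24 among the 3 steady-state arrays and the median standard error became 0.86 at 24 min, so it does not settle a sign.

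At the replicated times the Start genes differed from steady state by at most 0.49 (CLN3 at 7 min, which did not pass the test). At 7 min none of the 10 was called, against 0.899% of all genes (0.826% higher and 0.0734% lower). An unadjusted p under 0.05 was reached by 1 of the 10 (CLN1) and by 1092 of all 5449 genes. At 24 min 3 rose (CLN1, WHI5 and PCL1) and 3 fell (SWI6, MBP1 and CLB5), while 75% of all genes were called, 44.5% higher and 30.4% lower. With quantile normalization of the genes alone none of these 3 falls was called. With single replicate arrays left out, 1 to 3 falls were called. The absolute difference at 24 min had a median of 0.18 over the 10 genes, beside 0.41 over all genes, and no member moved by more than 0.45. At 56 min, in BY005, 4 rose (CLN1, CLN2, MBP1 and PCL1) and 1 fell (CLB5), against 71% of all genes called, 45.3% higher and 25.7% lower. The largest difference of a member there was 1.14. At 120 min 4 rose (CLN1, MBP1, SIC1 and PCL1) and CLB5 fell, against 66.7% of all genes called, 41.4% higher and 25.3% lower.

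**Figure D1:**
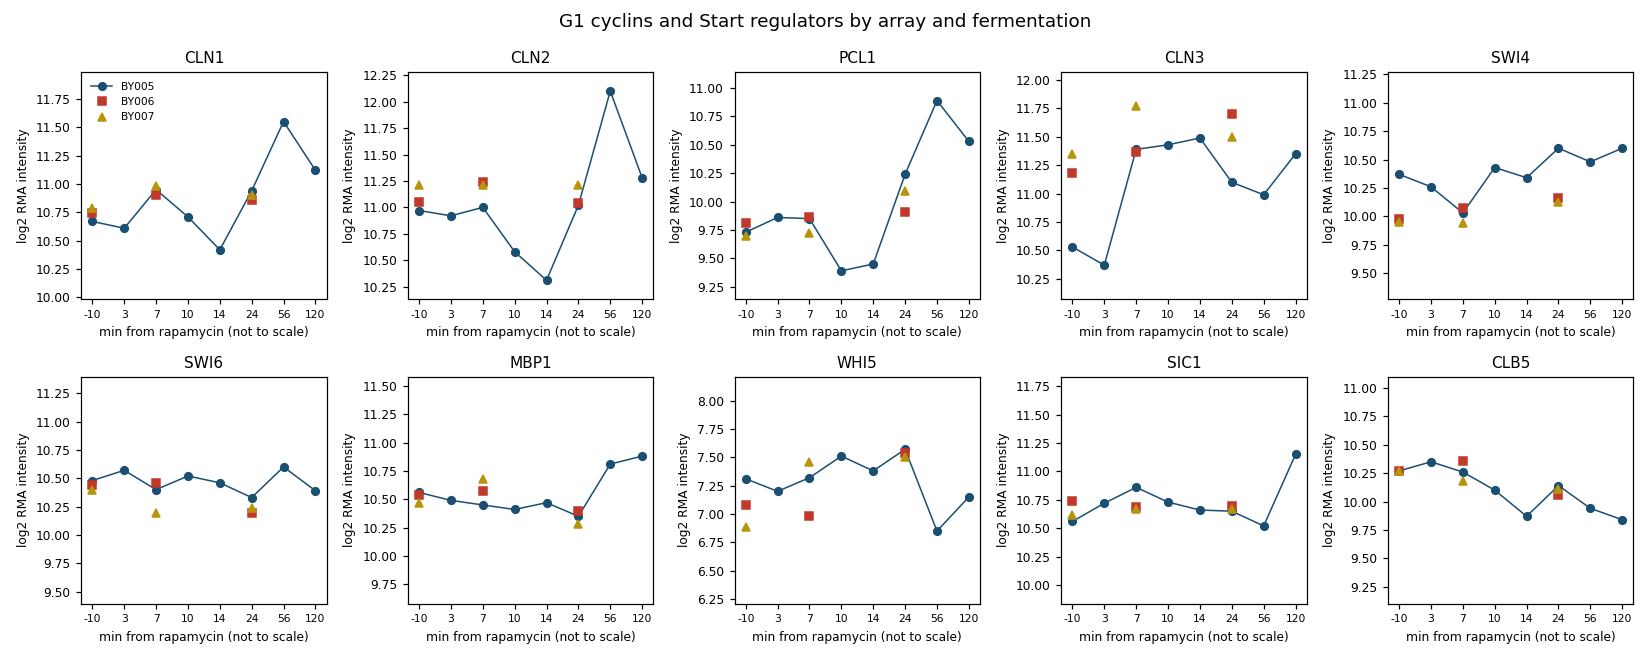
Log2 RMA intensity (vertical axis) of the 10 Start genes at 8 sampling times (horizontal axis, minutes from the rapamycin pulse, evenly spaced and not to scale). Points are single arrays of fermentations BY005 (circles, joined by a line), BY006 (squares) and BY007 (triangles). CLN1, CLN2 and PCL1 dip at 10 or 14 min in BY005 and peak at 56 min, at 11.55, 12.10 and 10.89.

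The late G1 cyclin genes CLN1, CLN2 and PCL1 fell below steady state around 10 to 14 min in BY005 and stood above it at 56 min. CLN2, whose product with Cdc28 triggers budding and the destruction of Sic1, read 10.97 at steady state in BY005, 10.92 at 3 min, 11.00 at 7 min, 10.58 at 10 min and 10.31 at 14 min. It then read 11.02 at 24 min, 12.10 at 56 min and 11.28 at 120 min. The 10 and 14 min arrays were below every steady-state array (10.97, 11.05 and 11.21), and the 56 min array was above all other arrays. The fall was 1.41-fold at 10 min (-0.50 ± 0.13, adjusted p = 0.014) and 1.7-fold at 14 min (-0.77 ± 0.13, adjusted p = 0.0011). At 10 min 42% of all genes were called (26.6% higher and 15.5% lower), and CLN2 and PCL1, both lower, were the 2 members among them. At 14 min 55.5% of all genes were called (27.3% higher and 28.2% lower), and the members among them were CLN1, CLN2 and CLB5, all lower.

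By 24 min the CLN2 arrays, at 11.02, 11.04 and 11.21, overlapped the steady-state arrays again. The difference was 0.02 ± 0.09 (adjusted p = 0.87), with a 95% interval from -0.19 to 0.22. At 56 min CLN2 was 2.03-fold above steady state (1.02 ± 0.13, adjusted p = 0.00011) and 2.01-fold above 24 min (1.01 ± 0.13, adjusted p = 0.00075). From 24 to 56 min 5 members rose and 1 fell, while 32.7% of all genes were called, 21.6% higher and 11% lower. From 56 to 120 min CLN2 fell by 0.82 on the log2 scale (SE 0.16, adjusted p = 0.0087), and 17.8% of all genes were called in that step, 9.95% higher and 7.87% lower. At 120 min it read 0.21 ± 0.13 above steady state (adjusted p = 0.18), and blocked by fermentation 0.32 (adjusted p = 0.016).

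CLN1, the close relative of CLN2, was lowest and highest in BY005 at the same times as CLN2. In BY005 it read 10.67, 10.61, 10.95, 10.71, 10.42, 10.94, 11.55 and 11.12 from steady state to 120 min, lowest at 14 min and highest at 56 min. Its fall at 14 min was 1.25-fold (-0.32 ± 0.07, adjusted p = 0.0041). The replicated times were tight. Steady state read 10.67, 10.74 and 10.79, 7 min read 10.95, 10.90 and 10.98, and 24 min read 10.94, 10.86 and 10.90. All 3 arrays at 7 min and all 3 at 24 min lay above all steady-state arrays. At 7 min the difference was 0.21 ± 0.05 (adjusted p = 0.085), and it passed without BY006 at 7 min (0.23, adjusted p = 0.031). At 24 min CLN1 rose 1.12-fold (0.17 ± 0.05, adjusted p = 0.012), and it was 1.76-fold higher at 56 min (0.82 ± 0.07, adjusted p = 1e-05) and 1.31-fold higher at 120 min (0.39 ± 0.07, adjusted p = 0.001). The step from 24 to 56 min was 0.65 ± 0.07 (adjusted p = 0.00024), and that from 56 to 120 min -0.43 ± 0.08 (adjusted p = 0.0092).

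PCL1 encodes a cyclin of a different kinase, Pho85, and is expressed with CLN1 and CLN2 in late G1. In BY005 it read 9.73 before the pulse, 9.86 at 3 min, 9.85 at 7 min, 9.39 at 10 min and 9.45 at 14 min, and then 10.24, 10.89 and 10.53 at 24, 56 and 120 min. Both dips lay below all 3 steady-state arrays (9.73, 9.81 and 9.70). The 10 min value was 1.28-fold lower (-0.36 ± 0.12, adjusted p = 0.041) and the 14 min value read -0.30 ± 0.12 (adjusted p = 0.062). The call at 10 min was lost without any 1 of the steady-state arrays (adjusted p = 0.064, 0.095 and 0.059 in turn), without BY005 at 7 min (adjusted p = 0.052), or without BY007 at 24 min (adjusted p = 0.061). PCL1 at 14 min passed without BY005 at 24 min (adjusted p = 0.03) or BY006 (adjusted p = 0.026).

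By 24 min PCL1 was higher in all 3 fermentations, by 0.51, 0.10 and 0.39 against their own steady-state arrays. For 56 and 120 min PCL1 was read in BY005 alone. At 24 min it read 10.24, 9.91 and 10.09, all above steady state, and was 1.26-fold higher (0.33 ± 0.08, adjusted p = 0.0064). It was 2.2-fold higher at 56 min (1.14 ± 0.12, adjusted p = 3.8e-05) and 1.72-fold higher at 120 min (0.79 ± 0.12, adjusted p = 0.00042). Between 7 and 24 min, where 70.3% of all genes were called (39.5% higher and 30.8% lower), PCL1 rose by 0.27 ± 0.08 (adjusted p = 0.019). That call was lost without BY005 at 24 min (adjusted p = 0.055) and without BY007 at 24 min (adjusted p = 0.051) or at 7 min (adjusted p = 0.069). The step from 24 to 56 min was 0.81 ± 0.12 (adjusted p = 0.0017), and that from 56 to 120 min read -0.35 ± 0.15 (adjusted p = 0.14).

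CLN3, the most upstream cyclin of Start, read higher after 7 min in every fermentation, but its steady-state arrays lay far apart. They read 10.53 in BY005, 11.18 in BY006 and 11.35 in BY007, so that of BY005 stood apart, and the 3 min array of BY005 read 10.37. From 7 min on, BY005 read 11.39, 11.43, 11.49, 11.10, 10.99 and 11.35. BY006 read 11.37 at 7 min and 11.70 at 24 min, and BY007 read 11.77 and 11.50. The 7 min arrays did not overlap the steady-state arrays, while those at 24 min did.

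Against its own steady-state array, CLN3 at 7 min was higher by 0.87, 0.19 and 0.42, and at 24 min by 0.57, 0.53 and 0.16. The fit without a block gave 0.49 ± 0.23 at 7 min (adjusted p = 0.28) and 0.42 ± 0.23 at 24 min (adjusted p = 0.13), neither past the threshold. Blocked by fermentation the 24 min value passed (0.42, adjusted p = 0.038), as did 10 min (0.73, adjusted p = 0.043), 14 min (0.79, adjusted p = 0.025) and 120 min (0.65, adjusted p = 0.04). The block left 7 min at adjusted p = 0.12 and 56 min at 0.29 (adjusted p = 0.28). At 3 min CLN3 read -0.65 ± 0.33 against steady state (adjusted p = 0.93), but -0.16 against that of BY005 alone. At 3 min none of the 10 members was called, nor was any other gene (0%). None of the 10 had an unadjusted p under 0.05, against 287 of all 5449 genes.

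**Figure D2:**
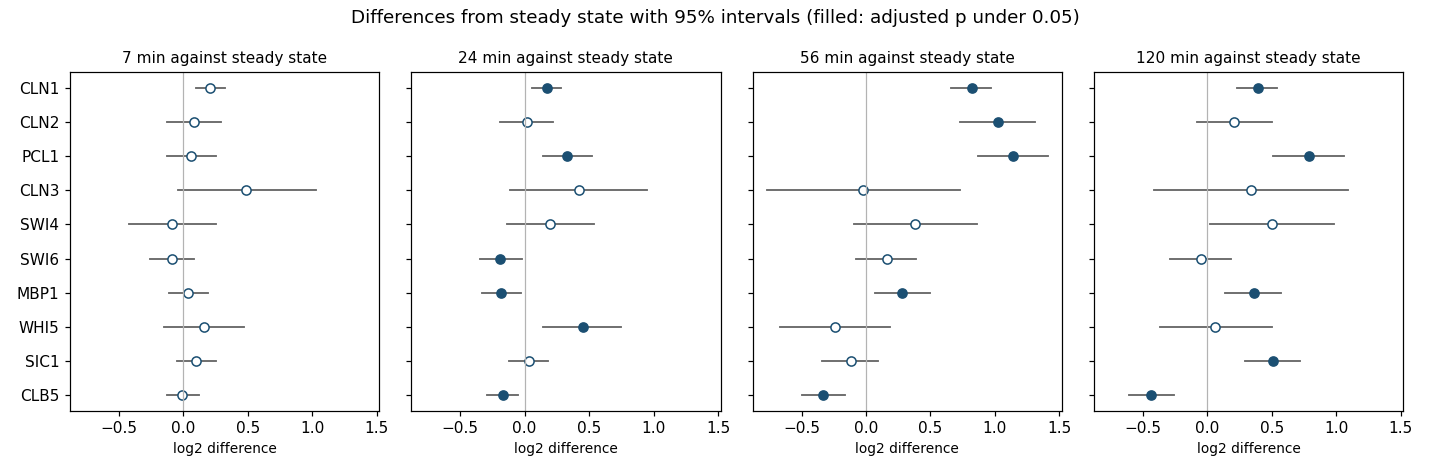
Log2 difference from steady state (horizontal axis) of the 10 Start genes at 7, 24, 56 and 120 min, relative to each array's overall distribution. Points are limma estimates with 95% intervals, filled where the adjusted p is under 0.05. The times 7 and 24 min rest on 3 arrays and 56 and 120 min on 1 array of BY005. The interval of CLN3 spans 0 in each panel, and PCL1 reaches 1.14 at 56 min.

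The genes of the transcription factors that act at Start moved by small amounts. SWI6, the subunit shared by SBF and MBF, spanned 0.26 over the 8 times of BY005, and 3.6% of all genes spanned less. By comparison CLN2 spanned 1.79, more than 84.1% of all genes. SWI6 read 10.48, 10.44 and 10.40 at steady state and 10.33, 10.19 and 10.24 at 24 min. The groups did not overlap, and the fall was 1.14-fold (-0.19 ± 0.07, adjusted p = 0.045). This call was lost with quantile normalization of the genes alone (-0.14, adjusted p = 0.11), without any single steady-state array (adjusted p = 0.12, 0.095 and 0.063 for BY005, BY006 and BY007), and without 3 other arrays, those at 24 min of BY006 (adjusted p = 0.13) and of BY007 (adjusted p = 0.11) and that at 7 min of BY005 (adjusted p = 0.054). SWI6 was also lower at 24 than at 7 min where the 7 min array of BY007 was left out (-0.17, adjusted p = 0.041), though not with it (-0.09 ± 0.07, adjusted p = 0.28). At 56 min SWI6 was 0.34 ± 0.10 above 24 min (adjusted p = 0.036), but not with the block (0.29, adjusted p = 0.063), with median centring (0.27, adjusted p = 0.085) or where the genes alone were quantile normalized (0.25, adjusted p = 0.096). The same call ended where BY006 lost its steady-state (adjusted p = 0.057) or 24 min array (adjusted p = 0.076), and where BY007 did (adjusted p = 0.053 and 0.08).

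MBP1, the DNA-binding subunit of MBF, was lower at 24 min and higher late in BY005. It read 10.56, 10.54 and 10.47 before the pulse, 10.45, 10.57 and 10.68 at 7 min, and 10.35, 10.40 and 10.28 at 24 min. At 56 and 120 min it read 10.81 and 10.88, above every other array. The fall at 24 min was 1.13-fold (-0.18 ± 0.07, adjusted p = 0.033), and 24 min was also below 7 min (-0.22 ± 0.07, adjusted p = 0.015). The first call was lost with quantile normalization of the genes alone (-0.15, adjusted p = 0.081), without BY005 at steady state (adjusted p = 0.093) or at 24 min (adjusted p = 0.065), without BY006 at steady state (adjusted p = 0.088), and without BY007 at 24 min (adjusted p = 0.11). The second was lost under that normalization (-0.15, adjusted p = 0.085) and without the 7 min (adjusted p = 0.056) or 24 min (adjusted p = 0.058) array of BY007.

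MBP1 was 1.22-fold above steady state at 56 min (0.28 ± 0.09, adjusted p = 0.023) and 1.28-fold above it at 120 min (0.36 ± 0.09, adjusted p = 0.0085). The step from 24 to 56 min was 0.47 ± 0.09 (adjusted p = 0.0069). The call at 56 min was lost with quantile normalization of the genes alone (0.22, adjusted p = 0.082), with median centring (0.20, adjusted p = 0.11), and without BY007 at steady state (0.25, adjusted p = 0.056).

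SWI4, the DNA-binding subunit of SBF, was called in none of the comparisons against steady state. It read 10.37 at steady state in BY005, against 9.98 in BY006 and 9.95 in BY007, so BY005 again stood apart. At 7 min the arrays read 10.03, 10.07 and 9.94, and at 24 min 10.60, 10.16 and 10.13, which is above each 7 min array. The difference between 24 and 7 min was 0.29 ± 0.15 (adjusted p = 0.11), and it passed blocked by fermentation (0.29, adjusted p = 0.033) and with quantile normalization of the genes alone (0.42, adjusted p = 0.028). At 120 min SWI4 read 0.50 ± 0.21 above steady state (adjusted p = 0.062). Without the steady-state array of BY005 it passed at 56 min (0.52, adjusted p = 0.036) and at 120 min (0.63, adjusted p = 0.017), and at 120 min also without BY005 at 24 min (0.50, adjusted p = 0.022) and with an intensity trend in the prior (0.50, adjusted p = 0.045).

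WHI5, the repressor of SBF, was the member with the largest rise at 24 min. It had the dimmest probe set of the 10, between 6.85 and 7.57 on the 14 arrays, where the fission yeast probe sets that serve as background had a 95th percentile of 5.77. Steady state read 7.31, 7.08 and 6.89 and 24 min 7.57, 7.54 and 7.50, so the groups did not overlap. The rise was 1.36-fold (0.45 ± 0.13, adjusted p = 0.015), and without BY007 at steady state it missed the threshold (0.34, adjusted p = 0.054). At 7 min the arrays spread from 6.98 to 7.46, and the difference from 24 min (0.29 ± 0.13, adjusted p = 0.086) passed without BY007 at 7 min (0.39, adjusted p = 0.037) and with quantile normalization of the genes alone (0.42, adjusted p = 0.018). In BY005 WHI5 stood lowest at 56 min, at 6.85, which was 1.61-fold below 24 min (-0.69 ± 0.19, adjusted p = 0.025). That call ended without BY006 at 24 min (adjusted p = 0.053) or BY007 (adjusted p = 0.052). Against steady state the 56 min array read -0.24 ± 0.19 (adjusted p = 0.28). The 10 min array read 0.41 ± 0.19 (adjusted p = 0.11), and this difference passed where the steady-state array of BY005 was left out (0.52, adjusted p = 0.05).

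SIC1, the inhibitor of the S phase kinase, was called in none of the comparisons before the last sample. It read 10.56, 10.74 and 10.62 at steady state and 10.65, 10.70 and 10.67 at 24 min. The groups overlapped, with a difference of 0.03 ± 0.07 (adjusted p = 0.67) and a 95% interval from -0.12 to 0.18. In BY005 the other times read 10.72, 10.86, 10.73, 10.66 and 10.52 at 3, 7, 10, 14 and 56 min. At 120 min SIC1 read 11.15, the highest of its 14 arrays and 1.42-fold above steady state (0.51 ± 0.09, adjusted p = 0.0013). The step from 56 to 120 min was 0.63 ± 0.11 (adjusted p = 0.0071), and SIC1 was the member that rose while CLN1 and CLN2 fell.

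CLB5, the S phase cyclin gene, was the one member called lower at each of 14, 24, 56 and 120 min. It read 10.27 in each fermentation at steady state, and 10.26, 10.36 and 10.18 at 7 min. At 24 min it read 10.14, 10.06 and 10.11, below all 7 min and steady-state arrays, a fall of 1.12-fold (-0.17 ± 0.05, adjusted p = 0.019). The call at 24 min was lost with quantile normalization of the genes alone (-0.11, adjusted p = 0.082) and without BY006 at 24 min (-0.15, adjusted p = 0.057). In BY005 the 10, 14, 56 and 120 min arrays read 10.10, 9.87, 9.94 and 9.84.

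The single-array falls of CLB5 were 1.33-fold at 14 min (-0.41 ± 0.08, adjusted p = 0.0019), 1.26-fold at 56 min (-0.33 ± 0.08, adjusted p = 0.0041) and 1.35-fold at 120 min (-0.44 ± 0.08, adjusted p = 0.00094). Between 7 and 24 min it fell by 0.16 on the log2 scale (SE 0.05, adjusted p = 0.023). That call ended with quantile normalization of the genes alone (-0.05, adjusted p = 0.41), with median centring (-0.13, adjusted p = 0.061), and where BY006 lost its 7 min (adjusted p = 0.07) or 24 min array (adjusted p = 0.068) or BY007 its 24 min array (adjusted p = 0.054). At 10 min CLB5 read -0.17 ± 0.08 (adjusted p = 0.1), and it passed with quantile normalization of the genes alone (-0.22, adjusted p = 0.041). Between 10 and 14 min, where 7.45% of all genes were called (0.33% higher and 7.12% lower), none of the 10 members was. There 2 members had an unadjusted p under 0.05, as had 1174 of all 5449 genes.

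Other genes that act around Start were read from 8 lists drawn up by role, with the 10 members left out. The lists were chosen with earlier results of these data known, so their counts are a description. The median difference over all genes at 24 min was 0.11. Of 11 measured genes that control Cdc28 and the G1 cyclins, 7 rose and 3 fell at 24 min (median 0.27, against 44.5% of all genes higher and 30.4% lower). SRL3, also called WHI7, which encodes a relative of Whi5, moved most. It read 9.83, 9.88 and 9.76 before the pulse, 10.63, 10.02 and 10.39 at 7 min, and 12.72, 12.40 and 12.57 at 24 min. At 7 min the difference was 0.52 ± 0.14 (adjusted p = 0.12), and it passed without the array of BY006 (0.69, adjusted p = 0.0061). The groups at steady state and 24 min were far apart, and SRL3 was 6.67-fold higher at 24 min (2.74 ± 0.14, adjusted p = 5.1e-07). In BY005 it read 12.76 at 56 min and 11.27 at 120 min, still 2.72-fold above steady state (1.44 ± 0.20, adjusted p = 0.00028). CAK1, the kinase that activates Cdc28, rose by 0.75 ± 0.06 (adjusted p = 6.6e-06). The largest falls of the list were YDJ1, a chaperone gene (-0.81 ± 0.07, adjusted p = 6.7e-06), and CKS1, which encodes a small subunit of Cdc28 complexes (-0.52 ± 0.08, adjusted p = 0.00034).

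FAR1, which encodes an inhibitor of Cln kinases in the pheromone response, was singled out after its values were seen. In BY005 it read 11.35 and 11.44 at steady state and 3 min, then 11.05, 10.35 and 9.99 at 7, 10 and 14 min, and 10.95, 10.67 and 11.23 at 24, 56 and 120 min. It was lowest at 14 min, 2.67-fold below steady state (-1.42 ± 0.14, adjusted p = 7.3e-05). CLN2 was lowest in BY005 at that time too. So were other listed genes, among them SKN7 (8.88), RNR1 (11.72), PCL10 (9.49), SVS1 (11.94) and CLB1 (10.74). Others were lowest at other times, such as CDC6 at 10 min (8.73) and TOS4 at 24 min (9.49). A link between FAR1 and CLN2 was not tested. At 24 min FAR1 read 10.95, 10.83 and 11.02 against 11.35, 11.40 and 11.49 at steady state, a fall of 1.39-fold (-0.48 ± 0.10, adjusted p = 0.0021). At 120 min the difference was -0.18 ± 0.14 (adjusted p = 0.29).

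Among 8 partners of SBF and MBF and repressors that act in G1, 6 rose and 1 fell at 24 min (median 0.43, beside 0.11 over all genes, of which 44.5% were higher and 30.4% lower). XBP1, a stress-induced repressor of G1 cyclin genes, read 8.48, 8.61 and 8.79 before the pulse, 9.68, 8.75 and 9.43 at 7 min, and 10.10, 10.31 and 10.14 at 24 min. At 7 min the difference was 0.66 ± 0.21 (adjusted p = 0.14), and without the array of BY006 0.93 (adjusted p = 0.0027). XBP1 was 2.95-fold higher at 24 min (1.56 ± 0.21, adjusted p = 0.00015) and 5.15-fold higher at 120 min (2.37 ± 0.30, adjusted p = 0.00014). At 10 and 14 min, when CLN2 was low in BY005, XBP1 read 10.58 and 10.43, and at 56 min, when CLN2 was high, 10.71. These are single arrays, and a link between XBP1 and CLN2 was not tested. RME1, a zinc finger protein that represses meiosis and can activate CLN2, rose 2.21-fold at 24 min (1.14 ± 0.10, adjusted p = 1.1e-05). SKN7, a regulator that can act with Mbp1, fell by 0.87 on the log2 scale (SE 0.05, adjusted p = 6.5e-07). MSA2, which encodes a protein that binds SBF and MBF, was the 1 gene of the 8 lists called at 7 min, and is named here for that (0.24 ± 0.04, adjusted p = 0.043). MSA2 was not called with quantile normalization of the genes alone or median centring, or when any replicate array but the 7 min array of BY006 was left out (adjusted p from 0.061 to 0.18).

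**Figure D3:**
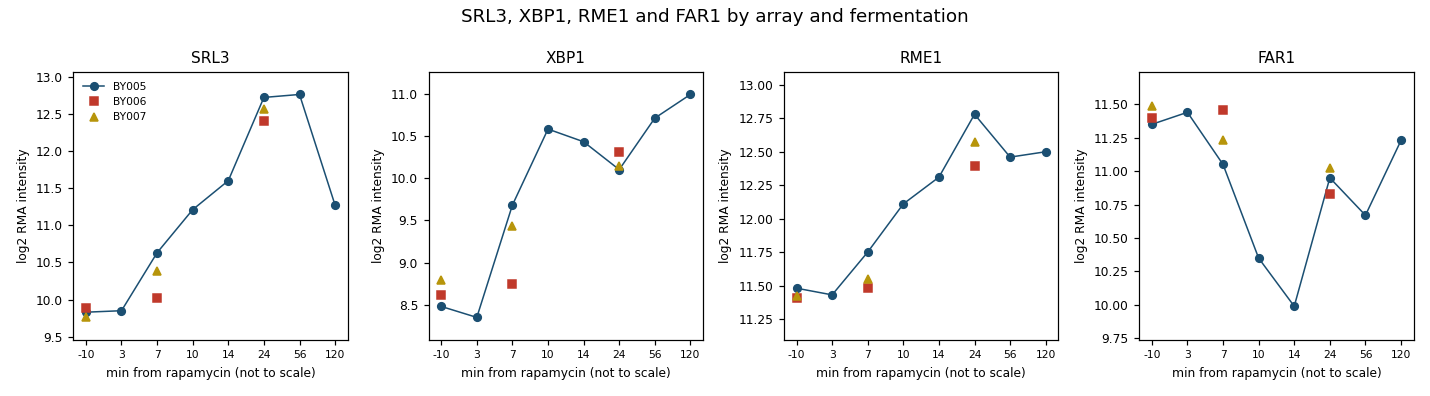
Log2 RMA intensity (vertical axis) of SRL3, XBP1, RME1 and FAR1 at 8 times (horizontal axis, minutes from the rapamycin pulse, not to scale). Points are single arrays of BY005 (circles, joined), BY006 (squares) and BY007 (triangles). SRL3, XBP1 and RME1 read higher on all 24 min arrays than on all steady-state arrays, and FAR1 is lowest at 14 min, at 9.99.

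Of 19 measured MBF targets other than CLB5, 12 fell and 5 rose at 24 min (median -0.24, beside 0.11 over all genes, of which 30.4% were lower and 44.5% higher). RNR1, of ribonucleotide reductase, fell by 0.67 on the log2 scale (SE 0.09, adjusted p = 0.00012), and CDC9, the DNA ligase gene, by 0.63 (SE 0.12, adjusted p = 0.0011). RFA1 (0.64 ± 0.05, adjusted p = 6.2e-06), of the single-strand DNA binding complex, and PRI2 (0.41 ± 0.04, adjusted p = 3.7e-05), of primase, rose. At 56 min 4 of the 19 rose and 4 fell, when 45.3% of all genes were higher and 25.7% lower. CLB6, the other S phase cyclin gene, was singled out after its values were seen and fell by 0.37 at 24 min (SE 0.09, adjusted p = 0.0042).

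Of 12 SBF targets other than CLN1, CLN2 and PCL1, 2 rose and 2 fell at 24 min (median -0.05), so 8 of the 12 were not called, while 75% of all genes were called, 44.5% higher and 30.4% lower. MNN1, a mannosyltransferase gene, rose by 0.79 ± 0.08 (adjusted p = 2.4e-05), and GIC2, an effector of the polarity GTPase Cdc42, by 0.56 ± 0.08 (adjusted p = 0.00019). TOS4, which encodes a DNA-binding protein, fell by 0.53 (SE 0.07, adjusted p = 0.00017), and SVS1, a cell wall protein gene, by 0.30 (SE 0.06, adjusted p = 0.0021). The count of rises became 4 without BY006 at 24 min. At 56 min 5 of the 12 rose and 1 fell, and the rises were about as frequent as among all genes (45.3% higher and 25.7% lower).

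Of 13 genes of the transition from mitosis to G1, 6 fell and 3 rose at 24 min (median -0.20, beside 0.11 over all genes, of which 30.4% were lower and 44.5% higher). MCM1, a transcription factor of early G1 genes, fell by 0.50 (SE 0.06, adjusted p = 5.8e-05), and CDC6, which loads the replicative helicase, by 0.47 (SE 0.11, adjusted p = 0.0046). ASH1, a repressor of mating type switching (0.55 ± 0.09, adjusted p = 0.00051), and the Pho85 cyclin gene PCL9 (0.29 ± 0.06, adjusted p = 0.0028) rose. At 120 min 5 of the 13 rose and 1 fell, with rises about as frequent as among all genes (41.4% higher and 25.3% lower). All 4 mitotic B-type cyclin genes fell at 24 min, when 30.4% of all genes were lower. CLB1 fell by 0.56 (SE 0.12, adjusted p = 0.0023) and CLB2 by 0.32 (SE 0.08, adjusted p = 0.0066), and 1 of the 4 was called lower at 120 min.

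Of the 8 genes of Pho85, the kinase that Pcl1 serves, and its other cyclins, 5 rose and 1 fell at 24 min (median 0.48, beside 0.11 over all genes, of which 44.5% were higher and 30.4% lower). PHO85 read 11.22, 11.15 and 11.18 at steady state and 12.32, 12.23 and 12.29 at 24 min, 2.14-fold higher (1.10 ± 0.07, adjusted p = 1.8e-06), and it read 12.52 and 12.40 at 56 and 120 min. PCL5, a cyclin that directs the destruction of Gcn4, rose by 0.82 ± 0.11 (adjusted p = 0.00014), and PCL10, a cyclin for glycogen synthase control, fell by 0.61 (SE 0.10, adjusted p = 0.00042). Of 6 genes of the SCF ligase and its F-box proteins, 4 rose and none fell at 24 min (median 0.31, against 44.5% of all genes higher and 30.4% lower). HRT1, its RING subunit, rose by 0.55 ± 0.08 (adjusted p = 0.00019) and SKP1, its adaptor, by 0.44 ± 0.10 (adjusted p = 0.0034).

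**Figure D4:**
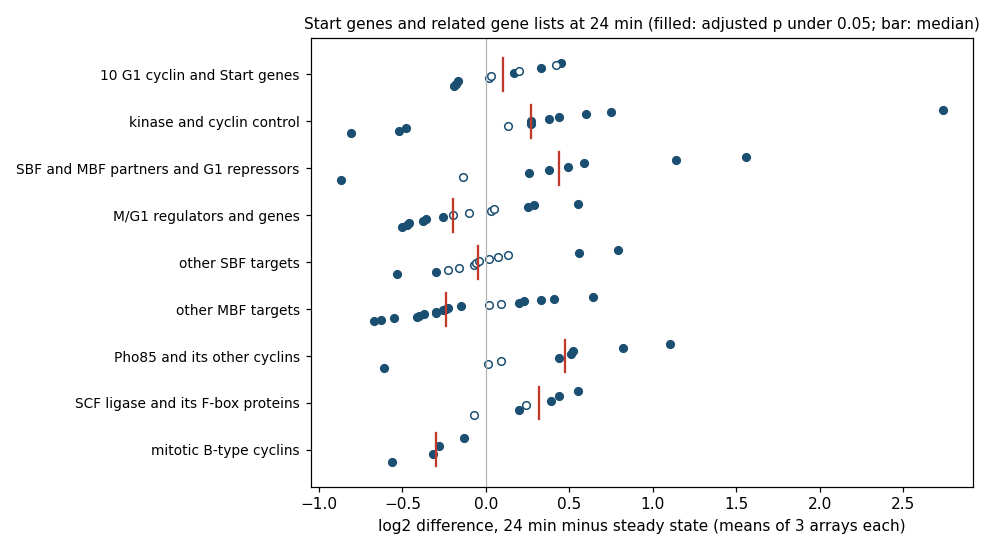
Log2 difference between 24 min and steady state (horizontal axis, means of 3 arrays each, relative to each array's overall distribution) of the 10 Start genes and of 8 related gene lists. Each point is 1 gene, filled where the adjusted p is under 0.05, and the vertical bars are list medians. The 10 Start genes lie between -0.19 and 0.45, while SRL3 reaches 2.74.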

How the data were processed

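The arrays are Affymetrix yeast arrays with biotin label. The authors deposited linear intensities from RMA, a method that corrects background, equalises the arrays' distributions and sums probes into probe sets; the submitters' processing notes name affy and R 2.10.0 for it. Here log2 was taken. The platform annotation gave a single budding yeast gene for 5498 of 10928 probe sets, hence 5449 genes, 47 of them averaged over several probe sets. The background is the 95th percentile (5.77) of 1746 fission yeast probe sets. The test was limma (version 3.58.1, under R 4.3.3; lmFit, eBayes), fitted to the 14 arrays together as 8 time groups without a block, with 6 residual degrees of freedom and 2.43 added by the prior, and Benjamini-Hochberg adjustment over the 5449 genes. The script was tested on simulated arrays with independent noise, so correlation between arrays of a fermentation was not covered. The number of arrays limits the precision.

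Same-numbered arrays come from the same experiment, per the labels, which pairs them. Their deviations from the group means correlated with r from -0.16 to 0.53. For arrays of different numbers r ran from -0.52 to 0.40, so the ranges overlapped. Blocked values stand beside results whose call they change. Alternatives were other scalings, another prior, a filter on dim genes, the brightest probe set and leaving out each replicate array.

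The members and lists were chosen with earlier results of these data known. Named genes are the 10 members, the up to 2 largest called rises and falls of each list at 24 min, and the 5 genes most correlated with the member of the largest fall and of the largest rise at 24 min. Some listed genes are not reported here. Sequences were not used here.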

Additional observations from a re-analysis of the deposited data

How the results depend on the processing

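Over the differences of members and named genes, no sign of a called difference turned under the block, the 2 other scalings of the genes, the other prior, the filter, the brightest probe set or any array left out. Calls were lost for 8 of 183 such differences with quantile normalization of the genes alone, for 4 with median centring and for 1 with the block, and were gained for 3, 0 and 6. The filter on dim genes and the brightest probe set changed none. Each member had 1 probe set, above background on all arrays, so these settings could not alter its values. With quantile normalization of the genes alone, 0 members in place of 3 fell at 24 min, and between 7 and 24 min 3 in place of 1 rose and 0 in place of 2 fell. The second count of falls was 1 with median centring. Of all genes, quantile normalization of the genes alone called 4094 in place of 4085 at 24 min. Between 7 and 24 min it called 3887 in place of 3830. With the fermentation as a replicate block 2 members in place of 1 rose between 7 and 24 min, and 1 in place of 0 at 10 and at 14 min. Of all genes, the block called 3966 in place of 3830 between 7 and 24 min. At 10 min it called 2125 in place of 2291, and at 14 min 2950 in place of 3026. The block changed no other count of members by over 1.5 times. At 120 min it added CLN2 (0.32) and CLN3 (0.65) to the 4 rises. It also added CLN3 at 24 min (0.42) and dropped SWI6 from the rises between 24 and 56 min (0.29). MSA2, the 1 rise at 7 min among SBF and MBF partners, was not called (0) with quantile normalization, median centring or control scaling, and the Pho85 list had 1 rise there with the intensity trend.

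Without each replicate array in turn, rises and falls of members numbered 0 to 1 and 0 to 0 at 7 min, 2 to 3 and 1 to 3 at 24 min, 0 to 1 and 0 to 2 between them, 0 to 1 and 1 to 2 at 10 min, 0 to 0 and 3 to 4 at 14 min, 3 to 5 and 1 to 1 at 56 min, 4 to 5 and 1 to 1 at 120 min, and 4 to 5 and 0 to 1 from 24 to 56 min. At 24 min the lists gave 9 to 12 falls and 4 to 5 rises of MBF targets, 2 to 4 rises of SBF targets, 5 to 7 falls and 2 to 3 rises of M/G1 genes, 1 to 2 falls of SBF and MBF partners, 4 to 5 rises of the SCF list and 3 to 4 falls of mitotic cyclins. At 7 min they gave 0 to 2 rises of the kinase list and of the partners, 0 to 1 falls of M/G1 genes and 0 to 1 rises of the Pho85 list. The same array, BY006 at 7 min, bore on several named genes. Without it CLN1, SRL3, XBP1, CAK1 (0.22, adjusted p = 0.049) and CDC6 (-0.55, adjusted p = 0.0054) were called at 7 min, and with it none of them was.

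Scaling to the 18 hybridisation control probe sets called 0 members in every comparison, and 410 in place of 4085 genes at 24 min. In the lists at 24 min it left 1 rise of the kinase list, 1 of the partners and 0 calls elsewhere. Its signs turned at 24 min for SWI6 (0.83), MBP1 (0.84), CLB5 (0.85), YDJ1 (0.21), CKS1 (0.50), SKN7 (0.15), MCM1 (0.52), CDC6 (0.55), TOS4 (0.49), SVS1 (0.72), RNR1 (0.35), CDC9 (0.38), PCL10 (0.41), CLB1 (0.46), CLB2 (0.70), CLB6 (0.65) and FAR1 (0.54), between 7 and 24 min for MBP1 (0.57) and CLB5 (0.63), at 56 min for CLN1 (-0.14) and MBP1 (-0.67), from 24 to 56 min for CLN1 (-1.33), CLN2 (-0.97), SWI6 (-1.63), MBP1 (-1.51) and PCL1 (-1.16), and from 56 to 120 min for CLN1 (0.22), none past the threshold. The controls spanned 1.70 to 2.24 among arrays of 1 time, and the cause was not tested.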

Other observations

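The nearest patterns to single members over the 14 arrays are given as a description, without a test, and arrays of 1 fermentation come from the same experiment. SWI6, with the largest fall at 24 min, was followed most closely by SEC24 (Pearson's r 0.809, Spearman's rho 0.815), CHA1, PMR1, YKR104W and GAS2 (r from 0.769 to 0.792). WHI5, with the largest rise, was followed by NAM8 (r 0.87, rho 0.921), PFA4, PPA2, ARP6 and MSK1 (r from 0.819 to 0.848). The same measure was taken for CLN2 and PCL1 after their values were seen. The nearest genes to CLN2 were PTI1 (r 0.938, rho 0.811), PUT3, THI7, CLN1 (r 0.911, rho 0.802) and UFO1. Those nearest to PCL1 were TRS85 (r 0.963, rho 0.938), MTQ2, HOT13, YHP1 (r 0.96, rho 0.881) and CTK3. YHP1, which encodes a repressor of early G1 genes, is the one gene of the M/G1 list among these.

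The labels give no mating type for the strain. The 6 markers of mating type a (MFA1, MFA2, STE2, STE6, BAR1 and AGA2) read between 11.84 and 14.42 on the 14 arrays. Of the 4 alpha markers measured, MF(ALPHA)1 read between 5.48 and 6.70 and was above the background percentile on 9 arrays, MF(ALPHA)2 between 6.24 and 6.87, STE3 between 7.66 and 8.73 and SAG1 between 9.57 and 10.61.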
